A study of Rattus norvegicus with 19 samples.

Results

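The 36 genes described here report on immune cells and their signals in the kidney. They comprise 14 markers of macrophages and other myeloid cells, 6 markers of lymphocytes, 10 chemokines, cytokines and adhesion genes, and 6 complement genes. They were chosen by name: every probe that the scanner files label with one of these symbols was taken, which gave 46 of the 45598 probes, and all 36 genes were among the 24217 genes tested. The material was RNA from the kidney cortex of 19 rats, all male and of the Crl:CD (SD) strain, with 1 single-colour Agilent array for each. The 7 DKD+enarodustat rats received 65 mg/kg of streptozotocin intravenously, which destroys the insulin-producing beta cells, and later ate feed that contained 0.01% (w/w) enarodustat, which stabilises hypoxia-inducible factor by blocking its prolyl hydroxylases. The 7 DKD rats received the same injection and normal feed, and the 5 Sham rats received vehicle and normal feed. Grouping, in which the diabetic rats were divided so that glucose in blood and body weight were alike, followed the injection by 7 days. The kidneys were collected 14 days after that, so DKD here means an early stage of a toxin-induced diabetes.

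Macrophages of the kidney lie between the tubules and survive on the growth factor Csf1, read by the receptor Csf1r. Injured tubular and endothelial cells release chemokines, which call monocytes and T cells from the blood, and display adhesion molecules such as Icam1, which these cells grip with integrins such as that of Itgb2. The classical pathway of complement starts with C1q, which macrophages make, and passes through C4 and C3. Activation is amplified by factor B (Cfb). Many of these genes respond to the transcription factor NF-kappaB, and a subset, Cxcl10 among them, to interferons.

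A level is given as log2 of the processed intensity minus the 75th percentile of the same array, so 0 is the brightness of that percentile. Levels of different probes cannot be set against each other. A difference passed where its two-sided limma p, adjusted by Benjamini-Hochberg over all 24217 genes, was under 0.05. Errors are standard errors of that fit. Values for a further probe of a gene came from a separate limma fit. That fit covered, and was adjusted over, all 30259 probes well above background on at least 5 of 19 arrays. Of the 19 arrays, between 54.4% and 67.3% of probes were well above background. The proximal tubule markers Slc34a1 and Lrp2 were well above background on every array, with median levels in DKD+enarodustat, DKD and Sham of 5.90, 5.94 and 6.23 for Slc34a1 and of 3.53, 3.62 and 4.02 for Lrp2. The thick ascending limb marker Umod had medians of 6.25, 6.00 and 6.77 in the same groups. Group and place on the slide went together: all DKD+enarodustat arrays lay in slide row 2 and all Sham arrays in row 1, while DKD replicates 2 and 4 lay in row 2 and the other 5 DKD arrays in row 1. Row 2 arrays had 54.4% to 62.9% of probes above background, and row 1 arrays 61.0% to 67.3%.

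Promoter sequence is shown for 3 genes of the group, to set the largest passed chemokine difference beside a chemokine of the same chromosome that did not pass and beside the adhesion gene with the smallest adjusted p. RefSeq (assembly GRCr8) gave a promoter, from 250 bases before to 50 after the start of the gene, for 25 of the 36 genes. Capitals mark matches, on either strand, to the NF-kappaB motif (GGGA, any 4 bases, then CC) or to the interferon-stimulated response motif (GAAA, any 2 bases, then GAAA). The Cxcl10 window is chr14:15988816-15989115 on the plus strand, the Cxcl1 window chr14:17479272-17479571 on the minus strand and the Icam1 window chr8:27829595-27829894 on the plus strand.
Cxcl10: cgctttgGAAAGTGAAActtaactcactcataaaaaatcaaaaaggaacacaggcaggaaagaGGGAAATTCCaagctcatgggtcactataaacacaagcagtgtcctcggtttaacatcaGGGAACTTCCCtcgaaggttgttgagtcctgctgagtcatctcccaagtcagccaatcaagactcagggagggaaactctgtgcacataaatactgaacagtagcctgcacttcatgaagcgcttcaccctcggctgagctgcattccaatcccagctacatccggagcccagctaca
Cxcl1: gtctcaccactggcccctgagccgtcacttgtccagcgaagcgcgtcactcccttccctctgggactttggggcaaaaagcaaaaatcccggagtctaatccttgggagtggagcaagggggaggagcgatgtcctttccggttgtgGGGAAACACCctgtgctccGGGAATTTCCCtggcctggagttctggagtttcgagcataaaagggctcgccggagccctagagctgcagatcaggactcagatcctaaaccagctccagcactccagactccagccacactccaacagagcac
Icam1: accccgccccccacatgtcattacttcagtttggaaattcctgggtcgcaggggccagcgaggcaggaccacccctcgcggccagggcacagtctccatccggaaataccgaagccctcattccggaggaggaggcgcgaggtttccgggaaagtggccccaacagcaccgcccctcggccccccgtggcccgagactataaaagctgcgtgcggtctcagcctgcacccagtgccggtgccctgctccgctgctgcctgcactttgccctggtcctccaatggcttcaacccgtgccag
In Cxcl10 the interferon-type match began at position -243 from the start, and NF-kappaB matches began at -187 and -128, the last overlapping a match to the other strand at -127. Cxcl1 held 2 separate NF-kappaB matches, of which the one nearer the start began at -84, overlapping a match to the other strand at -83. Icam1 held no match to either motif in its window. Its stretch tggaaattcc departs from the NF-kappaB motif in the first letter only. A window without a match can therefore still hold a site of other letters. The NF-kappaB letters were present in 9 of the 25 promoters (36%) and in 19.6% of all 27457 promoters of the table. The interferon-type letters were present in 1 of 25 (4%) and in 3.77% of all. The hypoxia response core ACGTG was found in 4 of 25 (16%; C3, C4a, Cd3e and Csf1r) and in 19.7% of all, and the PU.1 motif GAGGAAGT in 1 of 25 (4%; Cd53) and in 2.44% of all. A match of letters describes the window only.

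The first comparison, DKD against Sham, set rats given streptozotocin against rats given its vehicle, so diabetes and direct effects of the toxin cannot be told apart. Of the 36 genes 7 rose, 1 fell and 28 did not pass. The genes that rose were Cd14, Cd163, Csf1r, Itgb2 and Lyz2 of the myeloid genes, the adhesion molecule Icam1 and the chemokine Cxcl10. Cx3cl1, a membrane-bound chemokine of tubular and endothelial cells, fell. Over all genes tested 17.1% passed, 8.02% higher and 9.07% lower. The median difference of the 36 genes was 0.31 on the log2 scale, and 29 of them lay above 0, while the median over all genes was -0.02. In whole cortex, more cells of a type cannot be told apart from more RNA in each cell.

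**Figure D1:**
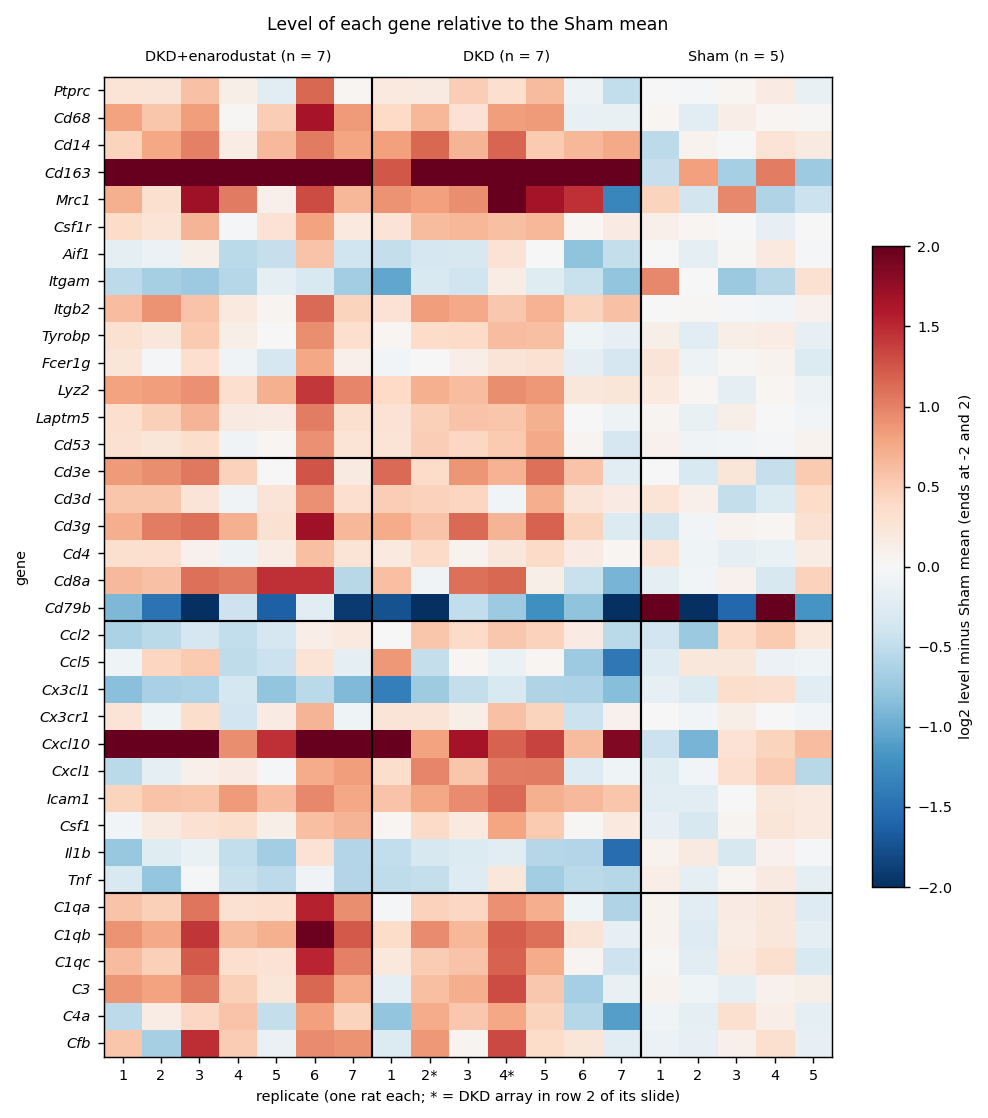
Level of each of the 36 genes on each array minus the Sham mean of that gene, on the log2 scale, with the colour range ending at -2 and 2. Columns are rats grouped as DKD+enarodustat, DKD and Sham, black lines separate the groups and the 4 kinds of gene, and a star marks the DKD arrays of slide row 2. Cd163 and Cxcl10 lay above the Sham mean on every diabetic array, and columns such as DKD+enarodustat replicate 6 and DKD replicate 4 were high and DKD replicate 7 low across many genes at once.

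Among the myeloid genes, 5 of 14 rose, none fell, and the median difference was 0.38. Cd14, the co-receptor of Toll-like receptor 4 for bacterial lipopolysaccharide, had a lowest level of -2.71, a median of -2.46 and a highest of -2.06 on the DKD arrays, against -3.75, -3.16, -3.22, -2.95 and -3.04 in Sham. The groups did not overlap, and the difference was 0.82 ± 0.17 (SE, n = 7 and 5, adjusted p = 0.00207). Its probe lies on rn4 chromosome 18 from 29374990 to 29375049, per the file headers.

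Cd163, the macrophage scavenger receptor for haemoglobin, was well above background on 6 of 7 DKD arrays and on no Sham array. Levels ran from -7.85 through a median of -6.35 to -3.61 in DKD, against -9.55, -8.27, -9.74, -8.05 and -9.81 in Sham, and no Sham array reached the lowest DKD array. Since Cd163 passed the filter on dim probes through diabetic arrays alone, its difference follows in part from that filter, and without it 6 of 35 members rose. The fitted difference was 3.17 ± 0.65 (adjusted p = 0.00250). Counting Sham at the lowest signal well above background of any probe on each array, a mean of -8.11, gave a 4.56-fold difference. This is not a lower limit, since Cd163 at -7.85 on DKD replicate 1 was not well above background either. The highest DKD levels, -4.62 and -3.61, were those of replicates 2 and 4, the arrays of row 2. With normexp background correction and quantile normalisation the difference was 0.45 (adjusted p = 0.0890), and within row 1 it was 2.45 (adjusted p = 0.0126). The probe lies on rn4 chromosome 4 from 160423704 to 160423763.

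Itgb2, the beta chain shared by the leukocyte integrins, ranged from -2.63 to -2.09 with a median of -2.35 in DKD, against -2.93, -2.91, -2.97, -2.98 and -2.83 in Sham. The Sham levels lay close together, and all DKD levels were above them (0.59 ± 0.15, adjusted p = 0.00992). Lyz2, the lysozyme of macrophages, had DKD levels from 4.55 through 4.94 to 5.25, against 4.51, 4.36, 4.14, 4.36 and 4.22 in Sham. Here too the groups did not overlap, although the gap was small (0.57 ± 0.16, adjusted p = 0.0172), and its 2 other probes gave 0.66 and 0.63 (adjusted p = 0.0315 and 0.0472). The Lyz2 call was lost with the replicate number as a block (adjusted p = 0.0603), with a term for slide row (adjusted p = 0.0665), with quantile normalisation of the processed signal (adjusted p = 0.0581), without DKD replicates 2 and 4 (adjusted p = 0.0741) and without Sham replicate 3 (adjusted p = 0.0510).

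Csf1r was the weakest of the 8 calls. Levels were -3.05 to -2.42 with a median of -2.49 in DKD, against -2.98, -3.04, -3.07, -3.25 and -3.09 in Sham. DKD replicate 6 lay inside the Sham range, and the other 6 DKD arrays lay above it (0.43 ± 0.14, adjusted p = 0.0433). The call was lost in 12 of the 19 fits that left out 1 array, with adjusted p up to 0.107: those without any single Sham array, without DKD replicate 2, 3, 4 or 5, and without DKD+enarodustat replicate 1, 2 or 5. It was also lost with a term for slide row (0.36, adjusted p = 0.136), within row 1 (0.36, adjusted p = 0.113) and without DKD replicates 2 and 4 (adjusted p = 0.151). Counting all alternative fits, these included, the Csf1r call was lost in 22 and kept in 13. A second Csf1r probe was above background on no array.

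The other 9 myeloid genes did not pass, with differences from -0.44 for Itgam to 0.95 for Mrc1. The leukocyte common antigen Ptprc (CD45), which all white blood cells carry, differed by 0.18 ± 0.20 (adjusted p = 0.659), with DKD levels from -2.79 through -2.09 to -1.66, against -2.30, -2.32, -2.26, -2.13 and -2.44 in Sham. Ptprc thus spread more widely in DKD than in Sham (SD 0.38 and 0.11). The lysosomal protein Cd68 differed by 0.39 ± 0.23 (adjusted p = 0.280), and 5 of 7 DKD arrays lay above all Sham arrays. The signalling adaptors Tyrobp and Fcer1g differed by 0.25 ± 0.16 and 0.02 ± 0.16, the leukocyte membrane proteins Laptm5 and Cd53 by 0.36 ± 0.15 and 0.31 ± 0.17, and the macrophage marker Aif1 (Iba1) by -0.30 ± 0.19. Mrc1, the mannose receptor, was well above background on only 5 of 7 DKD, 1 of 7 DKD+enarodustat and 1 of 5 Sham arrays. Its difference of 0.95 ± 0.46 (adjusted p = 0.188) passed without DKD replicate 7 (adjusted p = 0.0131). Mrc1 met the filter on dim probes through its DKD arrays, so this difference follows in part from that filter.

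Itgam, the alpha chain of the macrophage integrin Mac-1, depended on the probe. The probe that stood for it gave -0.44 ± 0.25 (adjusted p = 0.261), and a dimmer probe gave 0.64 ± 0.42 (adjusted p = 0.355). The first begins with a CA repeat of 11 bases, in capitals in its first 30 bases, and is shown because its sign differs from that of the other.
Itgam probe, first 30 bases, rn4 chr1:187385777-187385836: CACACACACACggttttaaacaagtggtag
Cx3cr1, the receptor for Cx3cl1, gave the same kind of split. Its brighter probe differed by 0.19 ± 0.17 (adjusted p = 0.529), whereas another, whose last 30 bases hold a CA repeat of 22 bases, fell by 0.80 ± 0.25 (adjusted p = 0.0388).
Cx3cr1 second probe, last 30 bases, rn4 chr8:125033728-125033787: aacagattCACACACACACACACACACACA
On that second probe DKD levels ran from -2.93 through -1.86 to -1.67, against -1.71 to -0.67 with a median of -1.22 in Sham. No sign is assigned to Itgam or Cx3cr1 for this reason.

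No lymphocyte marker passed for DKD against Sham (0 of 6, 2 at an unadjusted p under 0.05, a level met by 28.8% of all genes, median 0.29). The 3 chains of the T-cell receptor complex differed by 0.64 ± 0.25 for Cd3e, 0.36 ± 0.17 for Cd3d and 0.64 ± 0.24 for Cd3g (adjusted p = 0.0949, 0.182 and 0.0741). Cd3g levels ran from -3.75 through -2.78 to -2.28 in DKD, against -3.83, -3.52, -3.40, -3.42 and -3.16 in Sham. Thus 6 of 7 DKD arrays lay above all Sham arrays, and the exception was DKD replicate 7. Without that array Cd3e and Cd3g both passed (adjusted p = 0.0291 and 0.0142), and Cd3g also passed without DKD+enarodustat replicate 6 (adjusted p = 0.0456). Cd3e, which was above background on 5 of 7 DKD and 4 of 5 Sham arrays, passed with the replicate number as a block (0.73, adjusted p = 0.0442).

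Cd4, carried by helper T cells and, in rats, also by macrophages, differed by 0.21 ± 0.11 (adjusted p = 0.236). Cd8a of cytotoxic T cells differed by 0.22 ± 0.37 (adjusted p = 0.785). Cd79b, a chain of the B-cell receptor, differed by -1.31 ± 0.75 (adjusted p = 0.272) and was above background on 5 of all 19 arrays. In DKD its levels were -8.51 to -6.81 with a median of -7.54, against -3.35, -8.67, -7.88, -4.17 and -7.49 in Sham. Sham replicates 1 and 4 alone were high among the Sham arrays.

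Icam1, the ligand of the Itgb2 integrins on endothelium and injured tubules, gave the smallest adjusted p of the group. Levels were -0.22 to 0.36 with a median of -0.06 in DKD, against -0.99, -0.99, -0.77, -0.54 and -0.59 in Sham. The 2 sets were clearly apart (0.76 ± 0.12, adjusted p = 0.000230), and within row 1 the difference was 0.69 (adjusted p = 0.00525). Its probe lies on rn4 chromosome 8 from 20051730 to 20051789. Cxcl10, the interferon-inducible ligand of the T-cell receptor Cxcr3 whose promoter is printed above, had levels of -1.61 to -0.16 with a median of -0.89 in DKD, against -2.67, -3.17, -1.95, -1.80 and -1.63 in Sham. The groups did not overlap, by a narrow gap, and the difference was 1.37 ± 0.37 (adjusted p = 0.0168). It did not pass with the replicate number as a block (1.34, adjusted p = 0.0580) or without Sham replicate 2, its lowest array (adjusted p = 0.0553). The Cxcl10 probe lies on rn4 chromosome 14 from 17267994 to 17268053.

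Cx3cl1 (fractalkine) was the only member that fell. Its levels were 1.79 to 2.84 with a median of 2.53 in DKD, against 3.00, 2.88, 3.50, 3.47 and 2.92 in Sham. All DKD arrays lay below all Sham arrays, and the difference was -0.70 ± 0.16 (adjusted p = 0.00515). The remaining 7 genes of this kind did not pass, with differences from -0.57 to 0.51. The inflammatory cytokines Il1b and Tnf had the lowest of these, -0.57 ± 0.21 and -0.40 ± 0.15 (adjusted p = 0.0708 and 0.0811). Tnf levels ran from -3.72 through -3.54 to -2.79 in DKD, against -2.89, -3.21, -2.96, -2.85 and -3.20 in Sham. On 6 of 7 DKD arrays Tnf lay below all Sham arrays, and the exception was replicate 4. The Tnf difference passed without that array (adjusted p = 0.0113), within row 1 (-0.52, adjusted p = 0.0126) and with a term for slide row (adjusted p = 0.0344), as did Il1b with that term (-0.69, adjusted p = 0.0474) and without DKD+enarodustat replicate 6 (adjusted p = 0.0467).

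The monocyte attractant Ccl2 differed by 0.23 ± 0.23, the T-cell attractant Ccl5 by -0.26 ± 0.29 and the neutrophil attractant Cxcl1 by 0.51 ± 0.28 (adjusted p = 0.605, 0.644 and 0.241). Csf1, the growth factor of macrophages, differed by 0.31 ± 0.15 on its brighter probe (adjusted p = 0.185). A second Csf1 probe rose by 1.60 ± 0.38 (adjusted p = 0.00693). It was above background on 6 of 7 DKD, 6 of 7 DKD+enarodustat and 1 of 5 Sham arrays. Since it met the filter on dim probes through diabetic arrays, its difference follows in part from that filter.

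No complement member passed for DKD against Sham (0 of 6, 1 at an unadjusted p under 0.05, median 0.32). C1qb, 1 of the 3 chains of C1q, was nearest, at 0.63 ± 0.25 (adjusted p = 0.0912, and 0.0328 without DKD replicate 7). Its levels were 0.76 to 2.13 with a median of 1.59 in DKD, against 0.98, 0.66, 1.07, 1.15 and 0.74 in Sham. Apart from DKD replicate 7, all DKD arrays lay above Sham. C1qa, C1qc and C3 differed by 0.26 ± 0.25, 0.41 ± 0.25 and 0.31 ± 0.26, the factor B gene Cfb by 0.34 ± 0.32 and C4a by 0.01 ± 0.33. C4a had an SD of 0.80 in DKD and 0.23 in Sham, and its near-identical copy C4b could share signal with it.

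**Figure D2:**
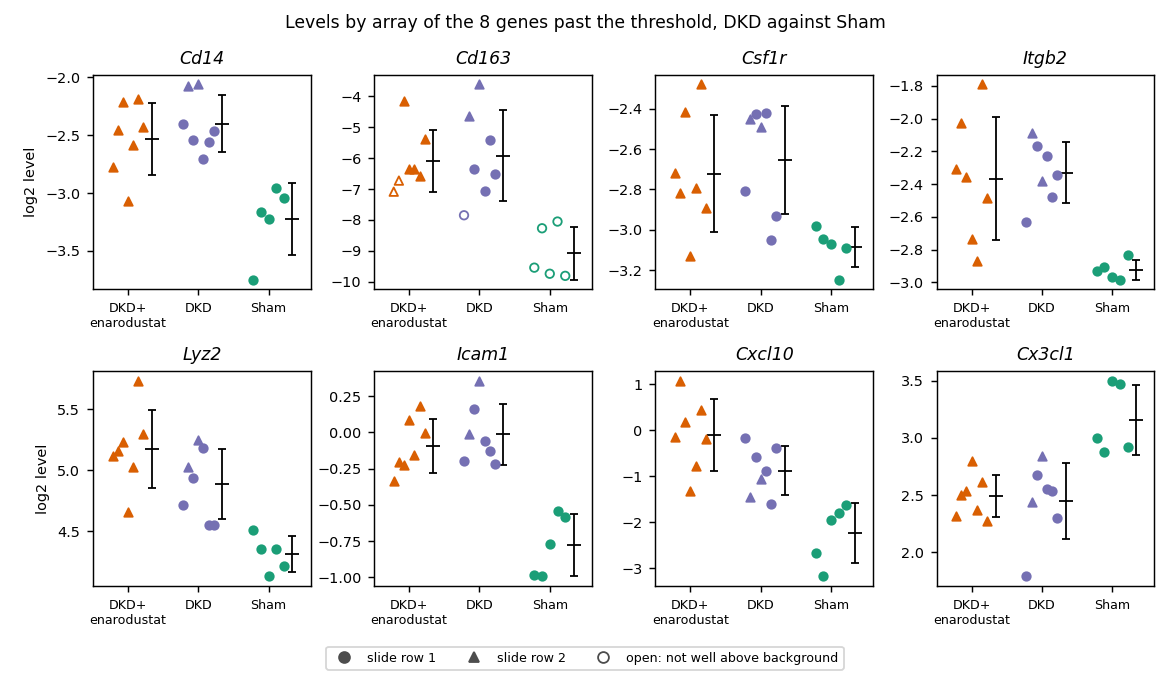
Levels (log2 relative to the 75th percentile of each array) of the 8 genes that passed for DKD against Sham. Each point is a rat, triangles lie in slide row 2 and circles in row 1, open points were not well above background, and the bar beside each group is the mean with SD. In Csf1r alone the DKD and Sham points overlap, and the 2 DKD triangles are the highest DKD points of Cd163.

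Slide and row were examined beside these calls. Within row 1, which held 5 DKD and all 5 Sham arrays, 6 members passed as higher and 2 as lower. Cd14, Cd163, Itgb2, Lyz2, Icam1 and Cxcl10 had differences of 0.69, 2.45, 0.55, 0.47, 0.69 and 1.52 there, and Cx3cl1 and Tnf of -0.78 and -0.52. Within slides 1, 2 and 3 Csf1r, whose groups overlapped, differed by 0.38, 0.70 and 0.29. For the other genes that passed the sign within a slide is fixed by groups that do not overlap. With so few arrays no member passed within a slide by limma after adjustment, and 19, 12 and 5 of the 36 members had an unadjusted p under 0.05 on slides 1, 2 and 3, of which slide 3 held 1 Sham array. Of all genes 17.4%, 15.1% and 14.0% had such a p there.

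The mean of the DKD arrays of row 2 exceeded that of the DKD arrays of row 1 at 30 of the 36 genes. The median difference between these means was 0.36. Both row 2 arrays lay above every row 1 DKD array at 5 of the 36 genes. The share over all genes tested is not given here. Marker lists of other cell types also differed between these arrays. Adipocyte markers, of which 8 of 9 were measured, 3 rose and none fell, stood 2.72 and 3.38 above their 19-array mean on DKD replicates 2 and 4 (median over the list), against -0.68 to 1.42 on the other DKD arrays and -1.79 to -1.20 in Sham. On DKD+enarodustat replicates 3 and 4, also in row 2, they stood at 2.04 and 1.46. Mast cell markers stood at 2.88 and 2.04 on these arrays, against -0.74 to 0.79 on the other DKD arrays and -1.08 to -0.01 in Sham, with 4 of 6 measured and 1 higher, and at 1.45 and 1.19 on those DKD+enarodustat arrays. Erythroid markers stood at 1.13 and 1.5 on DKD replicates 2 and 4, against -1.32 to 0.32 on the other DKD arrays and -0.95 to -0.02 in Sham, and reached 3.17 on DKD+enarodustat replicate 4. Fabp4 and Cfd, which were both on the adipocyte list, differed by 3.58 ± 0.91 and 3.66 ± 1.16 (adjusted p = 0.0110 and 0.0370). Cfd is also a complement gene. Their part in the results of the 36 genes was not tested.

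Other marker lists were counted in the same way. Neutrophil markers were measured for 3 of 8, with none passing, and their median over the list was -0.89 to 0.48 in DKD and -0.33 to 0.75 in Sham. Plasma cell markers had 1 higher of 4 measured, erythroid markers 0 of 7, endothelial markers 0 of 9, and fibroblast and pericyte markers 2 higher of 8. The list medians of these 4 lists ran over -0.39 to 0.28, -1.32 to 1.5, -0.25 to 0.06 and -0.18 to 0.34 in DKD, and over -0.84 to 0.20, -0.95 to -0.02, -0.13 to 0.14 and -0.19 to 0.14 in Sham. Proximal tubule markers had 2 higher and 6 lower of 10, and markers of the medulla and thick ascending limb 1 higher and 1 lower of 4. Slc34a1, Lrp2 and Umod fell by 0.26, 0.62 and 0.76 (adjusted p = 0.0197, 0.00199 and 0.00399).

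Further genes of the same pathways were taken from lists that had been drawn up beside the 36. Of 36 other myeloid genes measured 5 rose and 1 fell (median 0.13). The largest was Gpnmb, a glycoprotein of lipid-laden and phagocytic macrophages that injured tubules also make, at 2.97 ± 0.34 (adjusted p = 1.18e-05). Its levels were -2.98 to -0.92 with a median of -1.78 in DKD and -5.10 to -4.61 with a median of -4.98 in Sham. Trem2, the lipid receptor that signals through Tyrobp, rose by 1.72 ± 0.27 (adjusted p = 0.000273), the lectin receptor Clec10a by 1.24 ± 0.22 (adjusted p = 0.000966) and galectin-3 (Lgals3) by 0.79 ± 0.15 (adjusted p = 0.00152). Among 23 other lymphocyte genes 1 rose and 1 fell (median 0.14). The gene that fell was Cd7 (-1.05 ± 0.28, adjusted p = 0.0144, and 0.0520 with slide row as a covariate).

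Of 43 other chemokines, cytokines and adhesion genes 11 rose and 3 fell (median 0.10). Cxcl11, which shares the receptor Cxcr3 with Cxcl10, rose by 1.70 ± 0.17 (adjusted p = 2.27e-06), with levels of -1.41 to -1.10 in DKD and -3.16 to -2.34 in Sham. Osteopontin (Spp1), a secreted attachment protein of injured tubules and macrophages, rose by 2.80 ± 0.46 (adjusted p = 0.000376), the chemokine Ccl6 by 1.18 ± 0.21 (adjusted p = 0.000789) and the tumour necrosis factor receptor Tnfrsf1b by 0.71 ± 0.13 (adjusted p = 0.00126). Of 26 other complement genes 8 rose and 1 fell (median 0.26). The largest rise was that of Cfd (3.66), the gene counted above among the adipocyte markers. Masp2, the protease of the lectin pathway, rose by 2.50 ± 0.20 (adjusted p = 3.98e-07, and a difference of 0.70 with normexp and quantile normalisation), the inhibitor clusterin (Clu) by 1.86 ± 0.31 (adjusted p = 0.000391) and C8g by 0.76 ± 0.14 (adjusted p = 0.00136), and the membrane inhibitor Cd59 fell by 0.30 ± 0.05 (adjusted p = 0.000945). Of 23 genes of innate sensing and NF-kappaB 5 rose and none fell (median 0.08), among them the acute-phase transcription factors Cebpd and Cebpb (1.27 ± 0.13 and 0.80 ± 0.16, adjusted p = 5.39e-06 and 0.00211), the ubiquitin ligase Birc3 (0.67 ± 0.17, adjusted p = 0.0124) and the cytokine signalling inhibitor Socs3 (1.42 ± 0.37, adjusted p = 0.0125, and 0.0510 with slide row as a covariate).

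The second comparison, DKD+enarodustat against DKD, addressed the effect of the drug in diabetic rats. None of the 36 genes passed in limma, higher or lower, while 2.00% of all genes did, 1.07% higher and 0.933% lower. At an unadjusted p under 0.05, a level met by 13.7% of all genes, stood 3 of the 36 members, Cxcl10 and C1qa with higher and Ccl2 with lower levels in DKD+enarodustat. The direction of these counts moved with slide row. At that level 1 member was higher and 4 were lower with row as a covariate, and 0 and 4 within row 2. With slide and row together 0 were higher and 6 lower. The share of 13.7% belongs to the main fit, and the shares of all genes in these other fits are not given here. In the main fit the median difference was 0.08, with 25 of 36 genes above 0, against -0.02 over all genes. The 95% interval of the drug difference was -0.31 to 0.15 for Icam1, -0.45 to 0.19 for Cd14, -0.32 to 0.25 for Itgb2, -0.34 to 0.20 for Csf1r, -0.01 to 0.59 for Lyz2 and 0.06 to 1.49 for Cxcl10. The interval was -0.27 to 0.35 for Cx3cl1 and, for the dim gene Cd163, -1.43 to 1.08.

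Cxcl10 had levels of -1.31 to 1.08 with a median of -0.15 in DKD+enarodustat, against -1.61 to -0.16 with a median of -0.89 in DKD. On 4 of 7 DKD+enarodustat arrays it lay above all DKD arrays, and the difference was 0.78 ± 0.34 (adjusted p = 0.314). Ccl2 levels were -3.37 to -2.54 with a median of -3.08 in DKD+enarodustat, against -3.27 to -2.18 with a median of -2.34 in DKD, a difference of -0.52 ± 0.21 (adjusted p = 0.276). On slides 1, 2 and 3 the Ccl2 difference was -0.87, -0.88 and -0.03. Ccl7, a monocyte attractant of the same family that was not among the 36, fell (fitted difference -1.0 ± 0.20, adjusted p = 0.0122). It was above background on none of 7 DKD+enarodustat arrays, on 5 of 7 DKD arrays and on all 5 Sham arrays. Ccl7 met the filter on dim probes through DKD and Sham arrays alone, so this difference follows in part from that filter. With DKD+enarodustat counted at the lowest signal well above background the difference was 1.55-fold, which is not a lower limit. The Ccl7 difference was -0.14 with normexp and quantile normalisation (adjusted p = 0.0345), and -1.27 with a term for slide row (adjusted p = 0.0885).

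The 6 complement genes all had differences above 0 (0.17 to 0.49), without a call. C1qa levels were 0.20 to 1.43 with a median of 0.46 in DKD+enarodustat, against -0.70 to 0.81 with a median of 0.31 in DKD (0.49 ± 0.23, adjusted p = 0.347). The sets overlapped broadly, and 3 of 7 DKD+enarodustat arrays lay above all DKD arrays. C1qb, C1qc and C3 differed by 0.46 ± 0.22, 0.38 ± 0.23 and 0.45 ± 0.24, and Cfb and C4a by 0.17 ± 0.29 and 0.19 ± 0.30. These values moved with slide row. Within row 2, which held all DKD+enarodustat arrays and 2 DKD arrays, C1qa, C1qb and C3 differed by 0.06, 0.01 and -0.19. By slide, C1qa differed by 0.31, 0.02 and 0.92 on slides 1, 2 and 3.

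Among the myeloid genes the drug differences were -0.18 to 0.35, with Cd68 at 0.35 ± 0.21 and Lyz2 at 0.29 ± 0.14 (adjusted p = 0.50 and 0.396). Within row 2 Lyz2 differed by 0.04 (adjusted p = 0.986). The lymphocyte genes differed by 0.03 to 0.60, with Cd8a highest (0.60 ± 0.34, adjusted p = 0.469). In the chemokine group the other differences were -0.36 for Cxcl1, 0.26 for Ccl5, 0.19 for Il1b, 0.01 for Tnf, 0.00 for Csf1 and -0.06 for Cx3cr1. Of the companion lists, none of 36 myeloid and 23 lymphocyte genes passed. Macrophage migration inhibitory factor (Mif), a cytokine that is also a target of hypoxia-inducible factor, rose by 0.62 ± 0.13 (adjusted p = 0.0135, and 0.327 with slide row as a covariate), with Ccl7 the other call among 43 genes. The mannose-binding lectin Mbl1, which starts the lectin pathway of complement, fell by 1.05 ± 0.22 (adjusted p = 0.0140, and 0.269 with slide row as a covariate), the only call among 26 complement genes. Nfkb1, the p105/p50 subunit of NF-kappaB, fell by 0.27 ± 0.07 (adjusted p = 0.0422, and 0.441 with slide row as a covariate), the only call among 23 genes.

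**Figure D3:**
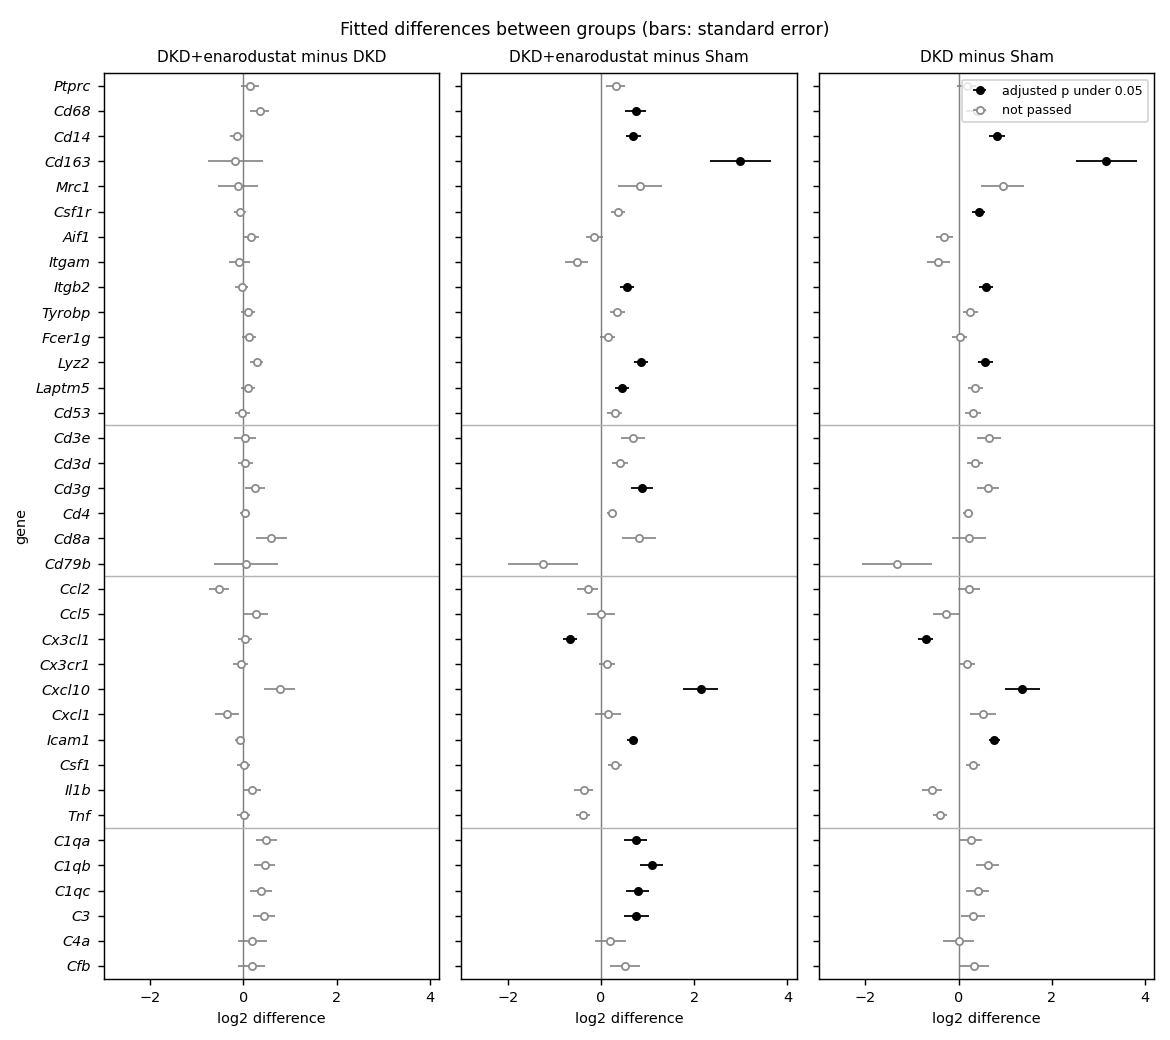
Log2 differences with standard errors of the 36 genes for DKD+enarodustat minus DKD, DKD+enarodustat minus Sham and DKD minus Sham; filled points passed an adjusted p of 0.05. No point is filled for DKD+enarodustat minus DKD, whereas 14 are for DKD+enarodustat minus Sham and 8 for DKD minus Sham. The 2 comparisons with Sham share the Sham arrays.

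The third comparison, DKD+enarodustat against Sham, joins streptozotocin and drug. It shares its Sham arrays with the first comparison, and each DKD+enarodustat array lay in the other slide row from each Sham array. Of the 36 genes 13 rose, 1 fell and 22 did not pass, with a median of 0.38, while 26.1% of all genes passed, 10% higher and 16% lower. By kind, 6 of 14 myeloid, 1 of 6 lymphocyte, 2 of 10 chemokine and 4 of 6 complement genes rose, and 1 chemokine fell. Without Cd163, which the filter kept through diabetic arrays alone, 12 members rose. Adipocyte markers (2 of 8 measured higher, none lower) stood at -0.60 to 2.04 in DKD+enarodustat, against -1.79 to -1.20 in Sham. Proximal tubule markers (2 of 10 higher, 7 lower) stood at -0.27 to 0.06 in DKD+enarodustat, against 0.18 to 0.33 in Sham. Those 2 lists did not overlap between the groups. Mast cell markers (1 of 4 higher) stood at -0.61 to 1.45 in DKD+enarodustat, against -1.08 to -0.01 in Sham, and erythroid markers (0 of 7 passing) at -1.23 to 3.17, against -0.95 to -0.02. Their part in the results of the 36 genes was not tested. Cxcl10 showed the largest difference among genes above background on every array, 2.14 ± 0.37 (adjusted p = 0.000405), with all 7 DKD+enarodustat arrays, lowest -1.31, above the highest Sham array at -1.63. Icam1 rose by 0.68 ± 0.12, Lyz2 by 0.86 ± 0.16, Cd14 by 0.69 ± 0.17 and Itgb2 by 0.56 ± 0.15 (adjusted p = 0.000380, 0.000608, 0.00468 and 0.00983). Cd163 rose by 2.99 ± 0.65 (adjusted p = 0.00245), above background on 5 of 7 DKD+enarodustat arrays, but differed without passing under normexp and quantile normalisation (adjusted p = 0.181). With Sham counted at the lowest signal well above background its difference was 4.04-fold, again not a lower limit. Cx3cl1 fell by 0.66 ± 0.16 (adjusted p = 0.00505), without overlap of the groups.

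The other 7 rises were in the complement genes C1qb, C1qc, C1qa and C3, in Cd68, in Laptm5 and in Cd3g. C1qb levels were 1.55 to 2.88 with a median of 1.82 in DKD+enarodustat, against 0.98, 0.66, 1.07, 1.15 and 0.74 in Sham. The groups did not overlap, and the difference was 1.09 ± 0.25 (adjusted p = 0.00321). C1qc differed by 0.79 ± 0.25, C1qa by 0.74 ± 0.25 and C3 by 0.76 ± 0.26 (adjusted p = 0.0284, 0.0336 and 0.0376). C3 levels were -1.03 to -0.12 with a median of -0.47 in DKD+enarodustat, against -1.19, -1.36, -1.45, -1.18 and -1.15 in Sham. These sets did not overlap either. Cd68 rose by 0.74 ± 0.23 and Laptm5 by 0.46 ± 0.15 (adjusted p = 0.0214 and 0.0365). Cd3g levels were -3.17 to -1.78 with a median of -2.74 in DKD+enarodustat, against -3.83, -3.52, -3.40, -3.42 and -3.16 in Sham, and 6 of 7 lay above all Sham arrays (0.89 ± 0.24, adjusted p = 0.0100). The calls of C1qa and Cd68 were lost with the replicate number as a block (adjusted p = 0.0600 and 0.0607), where Cd3e (0.76, adjusted p = 0.0260) and Cd8a (1.07, adjusted p = 0.0126) were gained.

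Single arrays mattered for the weaker of these calls. Of the 19 fits that left out 1 array, C3 missed the threshold in 10 (adjusted p up to 0.0845), Laptm5 in 7 (up to 0.0840), C1qa and C1qc in 6 each (up to 0.0785 and 0.0711) and Cd68 in 1, without Sham replicate 2 (0.0549). For C1qa and C1qc these were the fits without Sham replicate 1, 2 or 5 and without DKD+enarodustat replicate 3, 6 or 7. C3 was lost without any single Sham array and without DKD+enarodustat replicate 1, 2, 3, 6 or 7. For Laptm5 the fits lacked Sham replicate 1, 2, 4 or 5 or DKD+enarodustat replicate 2, 3 or 6.

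**Figure D4:**
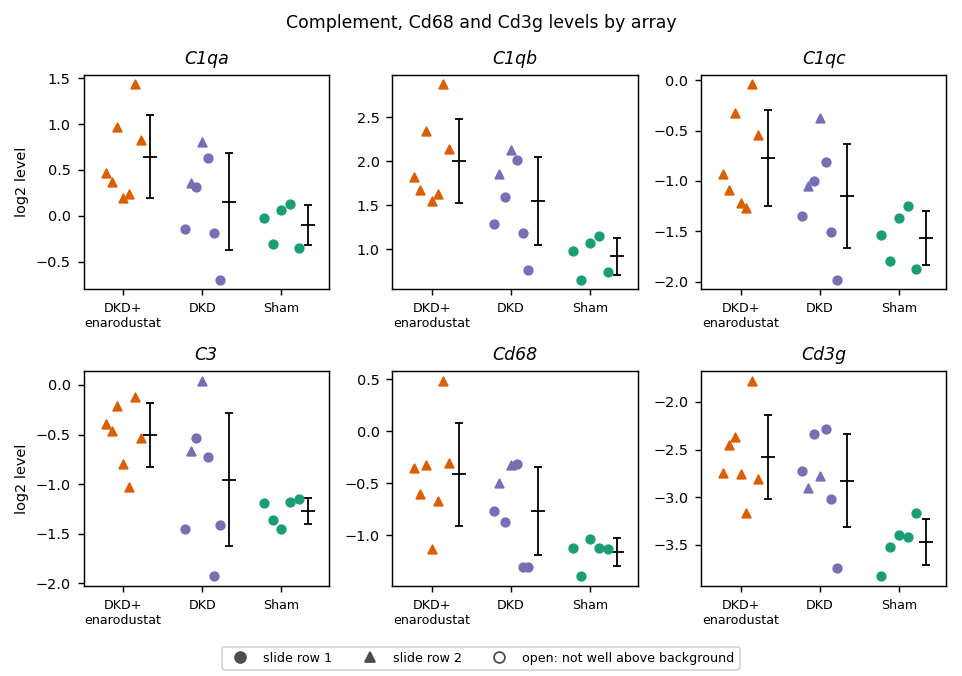
Levels (log2 relative to the 75th percentile of each array) of the 3 C1q chains, C3, Cd68 and Cd3g by group. Each point is a rat, triangles lie in slide row 2, circles in row 1, and the bar is the mean with SD. DKD+enarodustat replicate 6 is the highest point of its group in all 6 panels, and DKD replicate 4, a triangle, is the highest DKD point of the 4 complement genes.

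Slide row could not be separated from group here, since the 2 rows share only the DKD arrays. With row as a covariate, whose estimate rests on DKD replicates 2 and 4 against the other DKD arrays, Cxcl10 alone passed (2.66, adjusted p = 0.0282). Icam1, Lyz2, Cd3g and C1qb then differed by 0.42, 0.51, 0.90 and 0.46 (adjusted p = 0.283, 0.335, 0.284 and 0.615), Cx3cl1 by -0.93 (adjusted p = 0.0660), Cd163 by 0.47 (adjusted p = 0.836) and C3 by -0.14 (adjusted p = 0.891). Row and group cannot be told apart for this comparison.

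**Figure D5:**
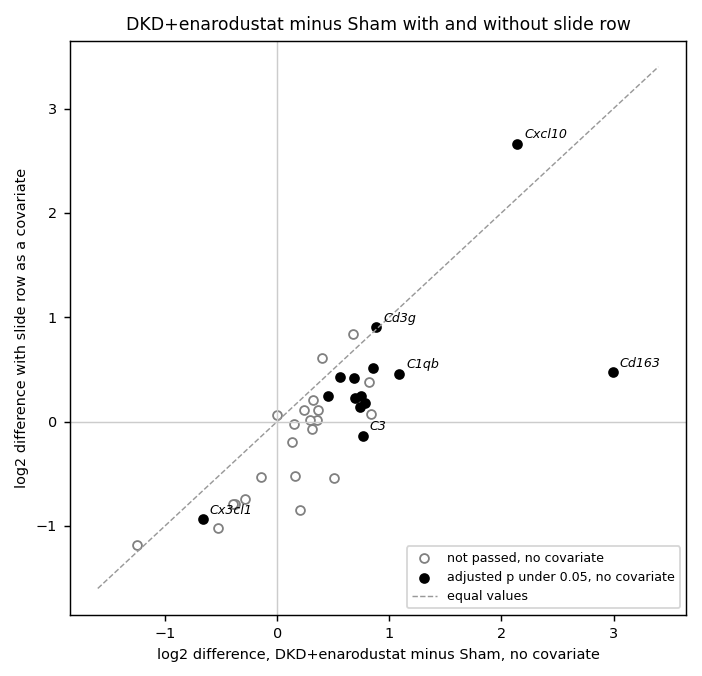
Log2 difference of the 36 genes for DKD+enarodustat minus Sham without a covariate (horizontal axis) and with a term for slide row (vertical axis), with the dashed line at equal values. Filled points passed without the covariate. Cxcl10 lies above the line, Cd163 moved to 0.47 and C3 to -0.14.

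Levels of the 36 genes moved together from rat to rat inside groups. DKD+enarodustat replicate 6 had the highest level of its group for 24 of 36 genes, and for 11 of the 14 myeloid genes. Its levels of Ptprc, Cd68 and C1qb were -1.15, 0.48 and 2.88, where the group medians were -2.03, -0.35 and 1.82. In DKD, replicate 4 was highest for 20 genes and replicate 5 for 10, while replicate 7 was lowest for 20. In Sham, replicate 4 was highest for 14 genes and replicate 2 lowest for 15. Sham had the smallest SD of the 3 groups for 11 of the 14 myeloid and 3 of the 6 lymphocyte genes. It also had the smallest for 6 of the 10 chemokine, cytokine and adhesion genes and 6 of the 6 complement genes. The share over all genes tested is not given here, so a small spread in Sham is not particular to these genes as far as shown. The SD of Itgb2, for example, was 0.38 in DKD+enarodustat, 0.19 in DKD and 0.06 in Sham, and that of Cd53 was 0.31, 0.36 and 0.07.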

How the data were processed

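Renal cortex RNA was hybridised in 1 colour (Cy3) to Agilent arrays of 62976 spots, 1 array per rat. The deposited values are processed intensities from Agilent Feature Extraction 11.5.1.1, per the submitters' processing notes, with background already subtracted, per the file headers. A log2 value table of 22739 probes (array medians 8.13 to 8.21) came from the authors too, and its correlation with normexp and quantile normalised values was 0.997 to 0.999 per array. Its normalisation is not given in the sources used here, and its scale and direction were settled by that comparison. From the intensities, log2 was taken and the 75th percentile of each array subtracted. Control spots and outlier spots were left out, spots of a probe were averaged, and the 30259 probes well above background on at least 5 of 19 arrays were kept. Of the 45598 probe names, 21109 were named through RefSeq (GRCr8) by accession and 1977 by an identical name, and 22512 kept the name in the files. The brightest probe stood for a gene.

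All 3 groups entered 1 limma fit (lmFit and eBayes, limma 3.58.1, R 4.3.3, 16 residual degrees of freedom), with Benjamini-Hochberg adjustment over 24217 genes. The number of arrays limits the precision. Each array holds a separate rat, per the labels. On simulated data with 200 changed genes among 24217, the fit recovered 66.7% of genes changed by a log2 size of 1 between DKD and Sham, and 74.6% of them between DKD+enarodustat and DKD. At a log2 size of 0.5 it recovered 42.4% and 46.0%. The simulated noise was independent between arrays and held no effect of slide or row. The 17 same-numbered pairs of arrays from different groups correlated in their deviations from the group means at 0.132 to 0.595 (median 0.228). These pairs share a slide, and 22 pairs on 1 slide with different numbers correlated at 0.0608 to 0.518 (median 0.253). A pairing by number therefore could not be told apart from a shared slide. The main fit held no pairing, and the replicate number entered as a block in an alternative only. Alternatives covered the background correction, scaling, probe filter, probe choice, the value table, slide, slide row, replicate block and leaving out arrays, including a fit with slide and row together that was added after seeing the data.

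The 36 genes and all lists were chosen with earlier results of these data known. By rule the text names all 36, up to 4 genes with the smallest adjusted p of each companion list (other myeloid, lymphocyte, chemokine and complement genes, innate sensing and NF-kappaB genes) in each of the first 2 comparisons, and Fabp4, Cfd, Umod, Slc34a1 and Lrp2. A gene that this rule names among the other lymphocyte genes is not reported here.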

Additional observations from a re-analysis of the deposited data

Results flagged for a closer look

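Dixon's test was applied to 171 groups, the 3 groups of 57 named genes, and marked 6 values, on 4 arrays, that stood apart from the rest of their group, where chance marks about 1 in 20 groups. No explanation was tested for any of them. Mrc1 was at -9.42 on DKD replicate 7, with the nearest DKD array at -7.30, and Il1b was at -3.60 on the same array, with the nearest at -2.67. Cd68 was at -1.39 on Sham replicate 2, with the nearest Sham array at -1.13, and Ccl7 was at -7.48 on that array, with the nearest at -7.01. Clu was at 1.96 on DKD+enarodustat replicate 1, with the nearest array of its group at 3.31. Cxcl11 was at -2.34 on Sham replicate 5, with the nearest Sham array at -3.07. All are log2 levels relative to the 75th percentile of the array.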

How the results depend on the processing

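For DKD+enarodustat against DKD, no member passed in any alternative run. For DKD against Sham, the 7 higher members became 0, 0 and 0 within slides 1, 2 and 3, and 4 with slide as a block and row as a covariate (added after seeing the data), and 5 to 11 when 1 array was left out. The 1 lower member became 2 with normexp and quantile normalisation, 3 in the authors' value table, 3 with row as a covariate, 2 within row 1, 2 without DKD replicates 2 and 4, 2 with slide and row together, 0 within each slide, and 1 to 2 when 1 array was left out. For DKD+enarodustat against Sham, the 13 higher members became 1 with row as a covariate, 1 with slide and row together and 0 within each slide, and 8 to 16 when 1 array was left out. The 1 lower member there became 3 in the authors' value table, 2 with the mean of the probes of a gene, 2 without DKD replicates 2 and 4, 0 with row as a covariate, 0 within each slide, and 1 to 2 when 1 array was left out. Fits within a slide hold fewer arrays. The cause of the other shifts was not tested. Among differences past the threshold in either setting, directions reversed for Cx3cr1 in DKD+enarodustat against Sham (-0.34 with the mean of its probes, which differ in sign) and for C3 there (-0.14 with row as a covariate, -0.028 with slide and row together). Of 3714 member differences under an alternative, 206 that were past it in neither setting also changed sign, among them C3 in DKD+enarodustat against DKD (-0.19 with row as a covariate, against 0.45) and Cx3cr1 in DKD against Sham (-0.30 with the mean of its probes, against 0.19).

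With the replicate block the counts were 0 higher and 0 lower for DKD+enarodustat against DKD, 13 and 1 for DKD+enarodustat against Sham, and 6 and 1 for DKD against Sham, and beyond the calls of Lyz2, Cxcl10, Cd3e, Cd68, Cd8a and C1qa given above it changed no other call of a member.

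Over all genes the drug comparison gave 485 calls, against 291 with array median scaling, 284 with no filter, 1770 in the authors' value table, 915 with slide as a block, 242 with slide and row together, 84 with row as a covariate, 12 within row 2, and 1, 0 and 0 within slides. DKD+enarodustat against Sham gave 6311, against 10744 with no filter, 1031 with row as a covariate and 1431 with slide and row together, and 14, 46 and 338 within slides. DKD against Sham gave 4140, against 0, 2 and 142 within slides. Signal over background limits Cd163, Cd3e, Cd8a, Cd79b and Mrc1, which were above background on 11, 14, 16, 5 and 7 of 19 arrays.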
